A study of Mus musculus with 26 samples.

Results

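A set of early stress-response genes, 10 of the 52962 genes in the deposited table, was followed across brown preadipocytes that differ in the insulin receptor they carry. They were *Ier2*, *Ier3* and *Ier5* of the immediate early response (IER) family, *Gadd45a*, *Gadd45b* and *Gadd45g* of the growth arrest and DNA damage-inducible family, and *Ppp1r15a*, *Atf3*, *Phlda1* and *Arc*. The genes were chosen by name with results of these same libraries already known, namely the rise of several of them with insulin in IR and ∆CT cells and the basal pattern of *Ier3*. Values for those contrasts are therefore given as a description without p-values. All 10 passed the filter on low counts.

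The cells were preadipocytes from the brown fat of newborn mice with floxed *Insr* and *Igf1r*, immortalized with SV40 T-antigen and freed of both receptors by Cre recombinase (DKO cells). DKO cells were transduced with human insulin receptor of the B isoform (IR), with the kinase-dead mutant K1030R, with a receptor that lacks the C-terminal tail (∆CT), or with a receptor cut off just inside the membrane, which keeps the juxtamembrane region only (JMO). All cells were starved of serum for 6 h and were harvested without insulin (basal) or after 100 nM insulin for 15 min, with DKO cells studied in the basal state only. There were 3 libraries per group and 2 for ∆CT with insulin, 26 in 9 groups. Each receptor was carried by a single line, and nothing states that the libraries of a group came from separate cultures, so the p-values measure the spread between these libraries and cannot tell a receptor from its line.

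Immediate-early genes are transcribed within minutes of a growth factor signal without new protein synthesis, and many are also switched on by cell stress. IER2 and IER5 are small nuclear proteins, and IER3 regulates survival and ERK signaling. The GADD45 proteins are small acidic proteins that bind MAP3K4, upstream of the p38 and JNK kinases, as well as PCNA, p21 and CDK1. PPP1R15A (GADD34) recruits protein phosphatase 1 to eIF2α and so ends the integrated stress response, in which ATF4 raises CHOP, ATF3 and PPP1R15A itself. ATF3 is a bZIP repressor, PHLDA1 is a pleckstrin-homology protein induced by growth factors, and ARC is best known as an activity-regulated gene of neurons.

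Library totals ran from 17228982 to 24694828 expected counts, and the counts behind a member ran from 38 for *Atf3* to 3772 for *Ier2* in a library. The transcript of *Insr*, which also collects reads of the human receptor, stood at 22.3 to 24.7 CPM (the count scaled to library size with TMM factors) in DKO cells and at 65.5 to 99.6 CPM in the 23 libraries of the receptor lines. *Igf1r* was at 24.7 to 28.5 CPM in DKO cells and 29.7 to 35.7 CPM in the receptor lines, and which of its exons the reads came from cannot be told from gene counts. Of 9 preadipocyte markers, *Pdgfra* (157 to 293 CPM), *Pdgfrb* and *Col1a1* were high while *Dlk1* and *Ebf2* were below 0.42 CPM in each library, and of 8 mature brown adipocyte markers *Fabp4* (0.443 to 4.75 CPM) was the only one above 0.3 CPM in any library, with *Ucp1* at 0 in 25 of 26. Of 9 markers of leukocytes, endothelium, muscle and epithelium, *Pecam1* was at 6.83 to 17.3 CPM, *Des* at 1.75 to 4.74 and *Cd68* at 1.54 to 3.64. *Adgre1* and *Myod1* were at 0 in the 26 libraries, and the rest did not exceed 0.986 CPM in any library. The summed level of the list was 12.3 to 25.3 CPM.

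The sequences just upstream of 5 of the genes are shown because the 3 *Gadd45* genes of the family differed in direction with insulin in IR cells, and because *Ppp1r15a* was higher there and *Ier5* was not. RefSeq promoters (GRCm38.p6) were found for 7 of the 10 genes and not for *Ier2*, *Phlda1* and *Arc*. Each line gives 120 bases, 5′ to 3′ on the gene's strand, that end before the first annotated exon base. The windows are chr6:67037458-67037577 (minus strand, *Gadd45a*), chr10:80929953-80930072 (plus, *Gadd45b*), chr13:51846555-51846674 (plus, *Gadd45g*), chr7:45526269-45526388 (minus, *Ppp1r15a*) and chr1:155099637-155099756 (minus, *Ier5*). Capitals mark matches to TATAAA, to CCAAT on either strand (ATTGG when reversed) and to TGACGTCA.
Gadd45a: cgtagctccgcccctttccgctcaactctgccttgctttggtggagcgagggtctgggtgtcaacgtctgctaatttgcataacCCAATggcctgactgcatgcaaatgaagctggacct
Gadd45b: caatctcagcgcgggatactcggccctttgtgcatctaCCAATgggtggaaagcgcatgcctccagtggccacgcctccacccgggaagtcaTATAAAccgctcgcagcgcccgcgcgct
Gadd45g: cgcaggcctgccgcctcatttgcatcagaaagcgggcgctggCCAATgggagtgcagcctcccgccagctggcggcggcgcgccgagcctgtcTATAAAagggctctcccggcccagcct
Ppp1r15a: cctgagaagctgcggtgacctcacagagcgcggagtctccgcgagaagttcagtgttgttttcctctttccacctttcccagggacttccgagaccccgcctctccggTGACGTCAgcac
Ier5: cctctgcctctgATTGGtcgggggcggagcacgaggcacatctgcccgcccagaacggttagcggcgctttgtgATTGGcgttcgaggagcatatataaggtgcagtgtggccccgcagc

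Motifs were searched on both strands of the 250 bases before the start of 32851 RefSeq promoters. TATAAA was present in 12.4% of them and, among the 7 members, in *Gadd45b* (positions -46 to -41 from the start) and *Gadd45g* (-27 to -22), but not in *Gadd45a*. CCAAT was present in 33.8% and in 5 members, *Ier3*, *Ier5* and the 3 *Gadd45* genes. CACGTG, present in 6.02%, was found in *Gadd45b* and *Gadd45g* upstream of the printed windows. The full cyclic AMP response element TGACGTCA, present in 1.55%, was found in *Ppp1r15a* only (-12 to -5), and its shorter form TGACG, which overlaps it there and is present in 17.8%, also in *Atf3*. GGGCGG was present in 32.7% and in 5 members. The letters TGANTCA (6.75% of promoters) and a CArG box (1.47%) were not in the searched window of any of the 7. *Ier2* and *Arc*, with the largest insulin effects in IR cells, and *Phlda1* were not searched. These matches describe the letters and do not show binding.

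Per kilobase of exon in IR cells without insulin, *Gadd45a* (18.0 CPM per kb), *Ier3* (17.3) and *Gadd45b* (17.2) were the most abundant members. *Ier2* (10.5), *Gadd45g* (8.27), *Ier5* (8.22), *Phlda1* (6.32) and *Ppp1r15a* (5.46) followed, and *Arc* (2.48) and *Atf3* (1.29) were the lowest. After insulin *Ier2* led at 109 CPM per kb, followed by *Ier3* at 55.5, while *Arc* stood at 17.4, next to *Gadd45a* at 17.4. *Atf3* remained the lowest, at 2.80.

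**Figure D1:**
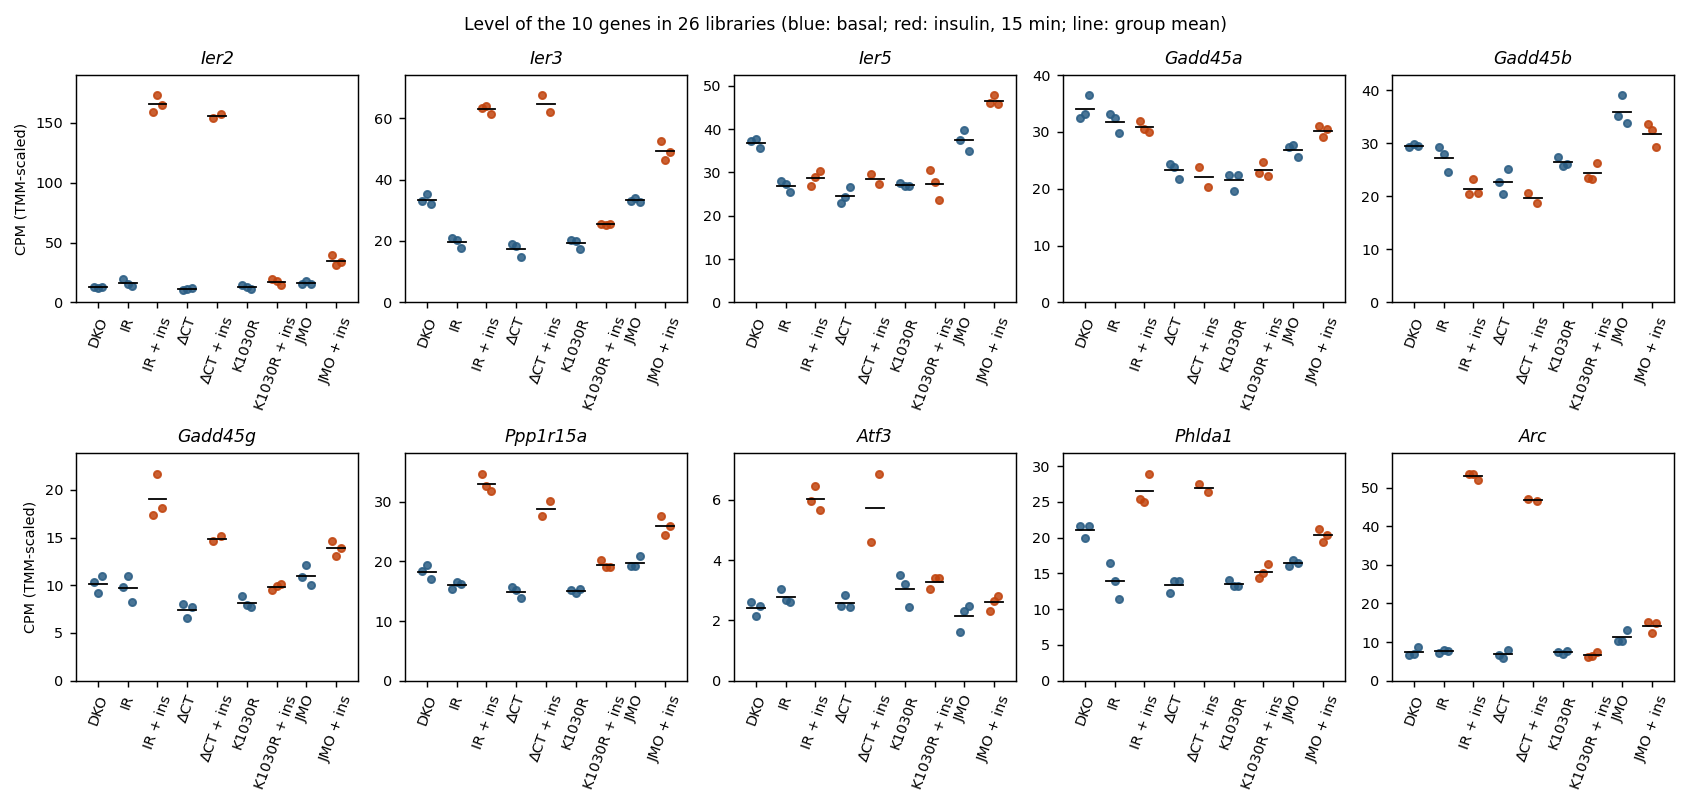
Level of each gene (vertical axis, CPM scaled by TMM factors, from 0) in the 26 libraries of the 9 groups; points are libraries, blue without and red with insulin, and lines are group means. *Ier2*, *Ier3* and *Arc* in IR and ∆CT cells with insulin lie apart from the other groups, whereas *Ier5* is highest in JMO cells with insulin.

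To see which of the genes answer to 15 min of insulin through an intact receptor, IR cells with and without insulin were compared. Among the IER genes *Ier2* and *Ier3* were higher with insulin and *Ier5* was not. *Ier2* (chr8:84661331-84662852, a single-exon gene) was at 19.2, 15.4 and 13.4 CPM without and 159, 173 and 165 CPM with insulin, a log2 fold change of 3.36 ± 0.10 (SE). Every stimulated library was far above every basal one, by 10.3-fold on the fitted scale. *Ier3* (chr17:35821684-35822923) went from 21.0, 20.3 and 17.6 to 63.4, 63.9 and 61.2 CPM (log2 1.68 ± 0.07). *Ier5* (chr1:155096361-155099636), whose product is known to act on the heat shock factor HSF1, was at 28.0, 27.2 and 25.5 CPM before and 26.9, 29.0 and 30.4 CPM after insulin. Its libraries overlapped, and the log2 fold change was 0.09, with a 95% confidence interval from -0.04 to 0.23.

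The 3 *Gadd45* genes went 3 ways. *Gadd45g* (chr13:51846678-51848468) was higher, from 9.86, 10.96 and 8.29 to 17.3, 21.7 and 18.1 CPM (log2 0.98 ± 0.10). *Gadd45a* (chr6:67035096-67037457) was level, at 33.1, 32.4 and 29.9 without and 31.9, 30.4 and 30.0 CPM with insulin, and its log2 fold change of -0.05 had an interval from -0.18 to 0.08. *Gadd45b* (chr10:80930073-80932204) was lower, from 29.4, 28.0 and 24.6 to 20.5, 23.3 and 20.6 CPM. Its libraries did not overlap, and the log2 fold change was -0.35 ± 0.08, the only lower value with insulin that passed the edgeR test. That pass was lost in 4 of the 6 fits that left out 1 library, those without IR basal replicate 1 or 2 or IR insulin replicate 1 or 3 (log2 -0.29 to -0.33).

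Of the other 4 genes, *Arc* (chr15:74669083-74672570) had the largest difference. It was at 7.08, 8.03 and 7.60 CPM without and 53.7, 53.5 and 51.9 CPM with insulin, a 7.03-fold difference (log2 2.81 ± 0.09). *Ppp1r15a* (chr7:45522916-45526268) was at 15.4, 16.5 and 16.2 and then at 34.8, 32.6 and 31.8 CPM (log2 1.05 ± 0.06). *Phlda1* (chr10:111506286-111508645) was at 16.5, 13.9 and 11.4 and then at 25.4, 25.0 and 29.0 CPM (log2 0.92 ± 0.08). *Atf3* (chr1:191170296-191218039) was at 3.03, 2.66 and 2.62 and then at 5.96, 6.47 and 5.67 CPM (log2 1.12 ± 0.15). In these 4 genes, too, the stimulated libraries lay above the basal ones without overlap.

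∆CT cells, which lack the receptor tail, gave values close to those of IR cells. *Ier2* went from 10.2, 10.7 and 11.9 to 154 and 158 CPM (log2 3.83 ± 0.11), *Arc* from 6.54, 5.99 and 7.86 to 47.2 and 46.7 CPM (2.79 ± 0.10), and *Ier3* from 18.9, 18.3 and 14.8 to 67.5 and 62.0 CPM (1.90 ± 0.07). *Gadd45g* (0.998), *Ppp1r15a* (0.95), *Phlda1* (1.01) and *Atf3* (1.16) again had log2 fold changes near 1, although the 2 stimulated libraries of *Atf3* were apart, at 4.59 and 6.87 CPM. Without the higher of these libraries the value of *Atf3* was 0.83. *Ier5* (0.21 ± 0.08), *Gadd45a* (-0.09 ± 0.08) and *Gadd45b* (-0.21 ± 0.09) did not pass. The difference of the log2 insulin effects between ∆CT and IR cells ran from -0.10 ± 0.10 for *Ppp1r15a* to 0.47 ± 0.16 for *Ier2*. The interval for *Ier2* was 0.13 to 0.81, and its basal level in ∆CT cells was below that in IR cells.

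A gene was called when edgeR's minimum-fold test placed it beyond 1.5-fold at an adjusted p below 0.05, and passed when the test without a minimum fold did so. In IR cells 6 of the 10 members were called higher, against 0.221% of the 15402 genes tested in either direction, and 7 passed higher and 1 lower, against 1.87%. In ∆CT cells 6 were called higher (0.214% of all genes) and 7 passed higher (1.01%). Because these contrasts served to choose the genes, nothing is read from those shares. Called in both lines were *Ier2*, *Ier3*, *Gadd45g*, *Ppp1r15a*, *Phlda1* and *Arc*, and *Atf3* passed but was not called in either. The median log2 fold change of the 10 was 1.01 in IR and 1.01 in ∆CT cells, beside -0.006 and -0.014 over all genes.

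The calls of the smaller effects rested on few libraries. In IR cells *Gadd45g* and *Phlda1* were both not called without IR basal replicate 3, and 1 of them was not called without IR basal replicate 2 or IR insulin replicate 2 or 3. In ∆CT cells *Gadd45g* was not called without ∆CT basal replicate 2 or 3, and leaving out either stimulated library also cost *Phlda1* or *Ppp1r15a*.

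**Figure D2:**
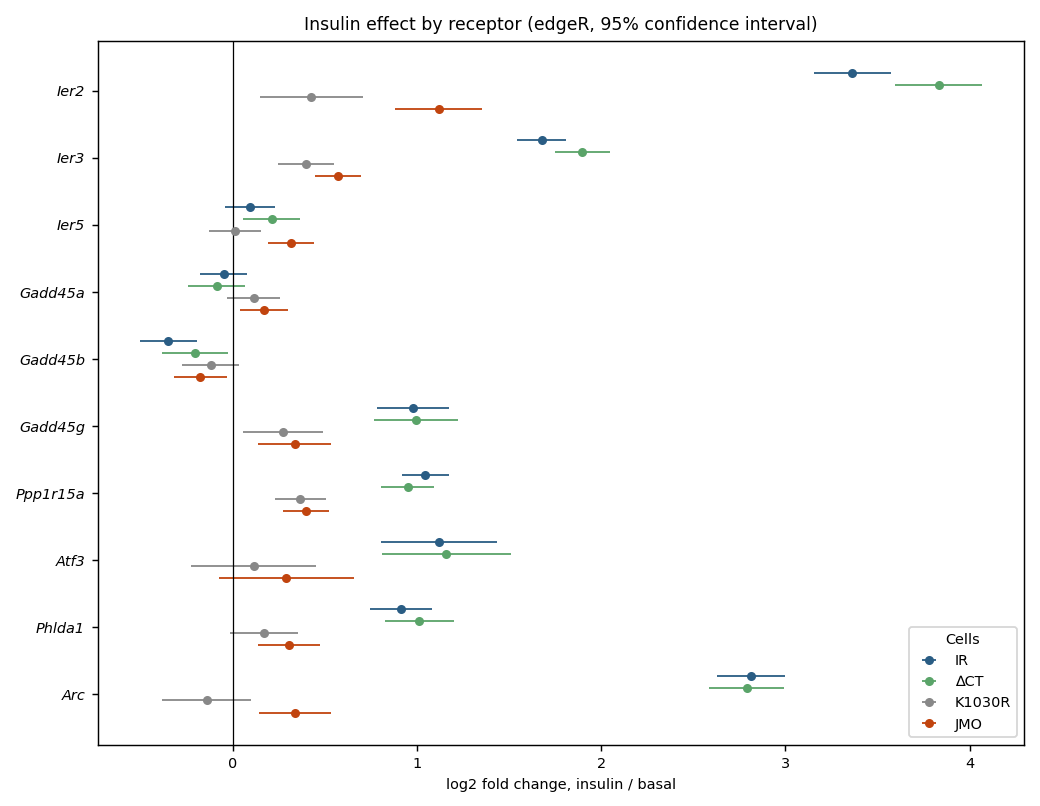
Insulin effect on the 10 genes (horizontal axis, log2 fold change of insulin over basal; point, edgeR estimate; bar, 95% confidence interval) in IR, ∆CT, K1030R and JMO cells. The IR and ∆CT points lie side by side and beyond 0.9 for 7 genes, the K1030R points lie between -0.14 and 0.43, and the JMO point of *Ier2* is at 1.12.

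The kinase-dead receptor was used to ask what remains without kinase activity. With no DKO libraries after insulin, a response through the receptor of K1030R or JMO cells cannot be told apart from one without it. In K1030R cells no gene of the 15402 was called with insulin (0%), 0.156% passed in edgeR, and 937 had an unadjusted p below 0.05; limma and DESeq2 called none of the members either. *Ier3* was at 20.3, 20.0 and 17.5 CPM without and 25.6, 25.1 and 25.5 CPM with insulin (log2 0.40 ± 0.07). *Ppp1r15a* was at 15.2, 14.6 and 15.5 and then at 20.2, 19.1 and 19.1 CPM (log2 0.37 ± 0.07). These 2 members passed, both higher, with the stimulated libraries above the basal ones. *Ier2* was at 14.1, 12.98 and 11.4 and then at 19.3, 17.6 and 14.8 CPM (log2 0.43 ± 0.13) and did not pass, but did in DESeq2 and in edgeR with no filter on low counts. *Gadd45g* (8.87, 7.95 and 7.70 to 9.55, 9.90 and 10.1 CPM, log2 0.27 ± 0.11) and *Phlda1* (0.17 ± 0.09) did not pass, and *Arc*, 7.03-fold higher with insulin in IR cells, had a log2 value of -0.14 ± 0.12 here. *Ier5* (0.01), *Gadd45a* (0.11), *Gadd45b* (-0.12) and *Atf3* (0.11) had overlapping libraries. The pass of *Ier3* was lost without K1030R basal replicate 3 or insulin replicate 1 or 3, and that of *Ppp1r15a* without basal replicate 2 or insulin replicate 1.

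In JMO cells, whose receptor has no kinase domain, *Ier2* was higher with insulin. It was at 14.9, 17.8 and 15.7 CPM without and 39.4, 31.0 and 34.1 CPM with insulin, 2.17-fold higher (log2 1.12 ± 0.11), and was the only member called, against 0.039% of all genes. The call was lost in 4 of 6 fits without 1 library, those without JMO basal or insulin replicate 1 or 3, and also with limma and with only the JMO groups fitted, while the test without a minimum fold was passed in each of 13 alternatives. *Ier3* went from 32.99, 33.9 and 32.7 to 52.4, 46.5 and 49.1 CPM (log2 0.57 ± 0.06) and *Ppp1r15a* from 19.3, 19.2 and 20.8 to 27.7, 24.5 and 25.9 CPM (0.40 ± 0.06). In all, 4 members passed, all higher, against 0.364% of all genes.

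The fourth was *Ier5*, for which neither IR nor ∆CT cells had passed. In JMO cells it was at 37.6, 39.8 and 35.0 CPM without and 46.1, 47.8 and 45.9 CPM with insulin, so that the stimulated libraries were the 3 highest of the 26. The log2 fold change was 0.32 ± 0.06 (adjusted p = 0.00838, edgeR). It did not pass without JMO basal replicate 3 (0.27, adjusted p = 0.0849) or JMO insulin replicate 2 (0.29, adjusted p = 0.081), and over the 13 alternatives the adjusted p ran from 1.58e-05 to 0.0849. The effect was not shown to differ from that in IR cells (difference 0.22 ± 0.09, adjusted p = 0.647) or K1030R cells (0.30 ± 0.09, adjusted p = 0.966).

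The remaining members had smaller values in JMO cells. *Gadd45g* (10.99 ± 1.04 to 13.9 ± 0.74 CPM, SD, n = 3 each) had a log2 fold change of 0.34 ± 0.10 (adjusted p = 0.199, edgeR), *Phlda1* (16.0, 16.9 and 16.4 to 21.2, 19.4 and 20.3 CPM) of 0.31 ± 0.08 (adjusted p = 0.143) and *Gadd45a* of 0.17 ± 0.06 (adjusted p = 0.503). For each of the 3 the stimulated libraries were above the basal ones, but how many of all genes separated so was not counted. *Gadd45b* was lower in each stimulated library, at 33.6, 32.5 and 29.4 against 35.1, 39.1 and 33.9 CPM (log2 -0.17 ± 0.07, adjusted p = 0.568). *Arc* (0.34 ± 0.10) and *Atf3* (0.29 ± 0.18) had overlapping libraries. *Arc* passed without JMO basal replicate 3 (0.46, adjusted p = 0.0385) and when low counts were not filtered (0.0184). *Phlda1* passed when only the JMO groups were fitted (adjusted p = 0.0347) and when low counts were not filtered (0.0147).

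The differences between lines were taken as contrasts of the same model, and all share the IR libraries or the K1030R libraries. The contrasts with IR subtract the IR response by which the genes were chosen, so they are a description and nothing is read from their counts. The insulin effect was smaller in K1030R than in IR cells for *Arc* (log2 difference -2.95 ± 0.15), *Ier2* (-2.93 ± 0.17) and *Ier3* (-1.28 ± 0.10), which were called, against 0.123% of all genes. Without a minimum fold *Atf3*, *Phlda1*, *Gadd45g* and *Ppp1r15a* also passed, 7 in all, against 0.37%. *Atf3* lost that pass with DESeq2, with limma and without IR basal replicate 2, IR insulin replicate 1 or 2, K1030R basal replicate 1 or 2 or any 1 K1030R insulin library, and *Gadd45g* without IR insulin replicate 2 or K1030R basal replicate 1. JMO against IR cells gave the same 3 calls (0.117% of all genes), with -2.47 ± 0.14 for *Arc*, -2.24 ± 0.16 for *Ier2* and -1.10 ± 0.09 for *Ier3*, and 6 passed (0.279%). Of these *Gadd45g* did not pass without IR basal replicate 3, IR insulin replicate 2, JMO basal replicate 1 or 2 or JMO insulin replicate 2, and neither *Gadd45g* nor *Phlda1* passed with only the groups compared. For *Ier5*, *Gadd45a* and *Gadd45b* no difference between lines passed in any of these contrasts, with the lowest at -0.08 ± 0.10 and the highest at 0.30 ± 0.09.

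Between JMO and K1030R cells, and between ∆CT and IR cells, no member passed. In the first contrast no gene was called (0%) and 0.026% passed, with 571 genes at an unadjusted p below 0.05 in edgeR, and in the second no gene was called (0%) and 0.00649% passed, with 565. The JMO minus K1030R difference was 0.69 ± 0.18 for *Ier2*, with an interval from 0.32 to 1.06, and 0.48 ± 0.15 for *Arc*, from 0.17 to 0.79. *Ier2* passed there in DESeq2, and with no filter on low counts it passed in both contrasts. limma and DESeq2 called no member in either contrast.

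**Figure D3:**
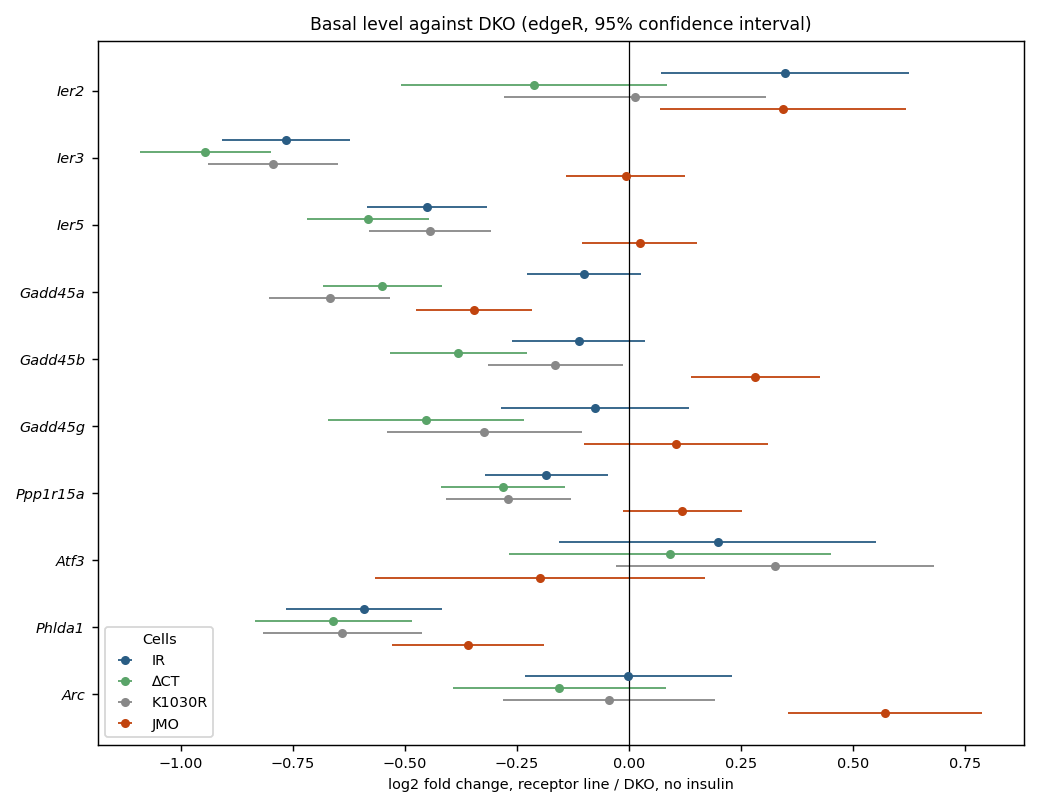
Basal level of the 10 genes in the 4 receptor lines (horizontal axis, log2 fold change against DKO cells without insulin; point, edgeR estimate; bar, 95% confidence interval). *Ier3*, *Ier5* and *Phlda1* lie below 0 in IR, ∆CT and K1030R cells, and in JMO cells *Ier3* and *Ier5* lie at 0 while *Arc* lies at 0.57.

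Without insulin the receptor lines were compared with DKO cells, which served as the common control of the 4 comparisons. The basal IR and ∆CT libraries also entered the insulin contrasts known when the genes were chosen. Basal comparisons and rankings that use them are therefore not independent of that choice, and their p-values do not allow for it. *Ier5*, *Phlda1* and *Ppp1r15a* were lower in IR, K1030R and ∆CT cells. In bulk RNA a lower share of expressing cells and less RNA per cell cannot be told apart. *Ier5* was at 37.3, 37.6 and 35.7 CPM in DKO cells, at 28.0, 27.2 and 25.5 in IR, 27.4, 26.96 and 26.8 in K1030R and 23.0, 24.3 and 26.5 in ∆CT cells, and at 37.6, 39.8 and 35.0 in JMO cells. The 9 libraries of the first 3 lines lay below the 6 of DKO and JMO cells. Against DKO the log2 fold changes were -0.45 ± 0.07 in IR (adjusted p = 5.58e-07, edgeR), -0.44 ± 0.07 in K1030R (1.17e-06) and -0.58 ± 0.07 in ∆CT cells (5.12e-09), and 0.02 ± 0.06 in JMO cells (0.812).

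*Ier3*, known beforehand for this pattern, was at 33.02, 35.4 and 32.04 CPM in DKO and 32.99, 33.9 and 32.7 in JMO cells. It was at 14.8 to 21.0 CPM in the 9 basal libraries of the other lines, with log2 values against DKO of -0.77, -0.79 and -0.95 in IR, K1030R and ∆CT cells and -0.01 in JMO cells. Insulin brought it above the DKO level in IR and ∆CT cells but to 25.4 ± 0.28 CPM (SD, n = 3) in K1030R cells, below each DKO library. The summed level of the 9 preadipocyte markers, most of it *Col1a1*, separated the same lines but in the opposite direction to *Ier3*. It was lower in basal DKO and JMO libraries (5478 to 5853 CPM) than in basal IR, K1030R and ∆CT libraries (8577 to 10409 CPM). The summed level of the 8 brown adipocyte markers, most of it *Fabp4*, ran in the direction of *Ier3*. It was at 2.50 to 2.68 CPM in DKO and 4.40 to 4.88 in basal JMO libraries. In the basal libraries of the other 3 lines it was at 0.643 to 2.01 CPM. The part of either list in these differences was not tested.

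*Phlda1* was at 21.7, 19.9 and 21.6 CPM in DKO cells and lower in all 4 lines. The log2 fold changes were -0.59 ± 0.09 in IR (adjusted p = 4.49e-07, edgeR), -0.66 ± 0.09 in ∆CT (7.59e-08), -0.64 ± 0.09 in K1030R (2.01e-07) and -0.36 ± 0.08 in JMO cells (0.000848), and none of the basal libraries of these lines reached the lowest DKO library. With insulin, IR and ∆CT cells rose past the DKO level (26.4 ± 2.18 and 26.99 ± 0.81 CPM), and JMO cells reached 20.3 ± 0.92 CPM, overlapping it. *Ppp1r15a* was lower by smaller steps, at 18.4, 19.4 and 17.1 CPM in DKO cells, with log2 fold changes of -0.18 ± 0.07 in IR (adjusted p = 0.0216), -0.27 ± 0.07 in K1030R (0.00169) and -0.28 ± 0.07 in ∆CT cells (0.00084). In JMO cells it was 0.12 ± 0.07 (0.165). The value in IR cells did not pass without DKO replicate 1 or 2 or IR basal replicate 1 (adjusted p = 0.0516 to 0.116).

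The *Gadd45* genes again differed from each other. *Gadd45a* was at 32.4, 33.2 and 36.4 CPM in DKO and 33.1, 32.4 and 29.9 in IR cells, which overlapped (log2 -0.10 ± 0.06, adjusted p = 0.187, edgeR). K1030R cells were at 22.4, 19.6 and 22.5 CPM, ∆CT cells at 24.4, 23.8 and 21.7 and JMO cells at 27.3, 27.7 and 25.5, below each basal library of DKO and IR cells. Their log2 fold changes against DKO were -0.67 ± 0.07 (adjusted p = 2.92e-10), -0.55 ± 0.07 (9.89e-09) and -0.35 ± 0.06 (4.89e-05) in that order. The exons of *Gadd45a* overlap those of the opposite-strand gene *E230016M11Rik*, which was at 0.873 to 2.26 CPM.

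*Gadd45b* was at 29.4, 29.9 and 29.5 CPM in DKO cells and at 35.1, 39.1 and 33.9 CPM in JMO cells, its highest group (log2 0.28 ± 0.07, adjusted p = 0.00195, edgeR). In ∆CT cells it was at 22.6, 20.4 and 25.2 CPM (-0.38 ± 0.07, adjusted p = 7.45e-05), whereas the differences in IR (-0.11 ± 0.07, adjusted p = 0.21) and K1030R cells (-0.16 ± 0.07, adjusted p = 0.075) did not pass. *Gadd45g* was lower in ∆CT (-0.45 ± 0.11, adjusted p = 0.00065) and K1030R cells (-0.32 ± 0.11, adjusted p = 0.0141), and did not pass in IR (-0.08 ± 0.10) or JMO cells (0.11 ± 0.10). The K1030R value did not pass without DKO replicate 3 (adjusted p = 0.0989) or K1030R basal replicate 3 (0.0668).

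*Arc* was level in DKO (6.68, 6.93 and 8.76 CPM), IR (7.08, 8.03 and 7.60), K1030R (7.39, 6.89 and 7.70) and ∆CT cells (6.54, 5.99 and 7.86). It was higher in JMO cells, at 10.4, 10.3 and 13.1 CPM, above each basal library of the other 4 lines (log2 0.57 ± 0.11 against DKO, adjusted p = 6.39e-05, edgeR). *Ier2* was at 13.2, 11.8 and 12.96 CPM in DKO cells and higher in IR (0.35 ± 0.13, adjusted p = 0.0342) and JMO cells (0.34 ± 0.13, adjusted p = 0.0494), with no overlap. The pass in IR cells was lost without IR basal replicate 1 (0.18, adjusted p = 0.265) and without any 1 DKO library (0.0525 to 0.104), and that in JMO cells in 5 of 6 such fits, all but the one without JMO basal replicate 1. *Atf3* was at 1.62 to 3.49 CPM in the 15 basal libraries and passed against DKO in no line.

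Counted over the members, 1 of 10 was called lower than DKO in IR, K1030R and ∆CT cells each, *Ier3*, and none in JMO cells, against 6.89%, 5.29%, 6.29% and 2.11% of all genes. At no minimum fold 1 was higher and 4 lower in IR cells (49.8% of all genes passed), 6 were lower in K1030R (41.6%), 7 lower in ∆CT (46.3%), and 3 higher and 2 lower in JMO cells (34.3%). The shares of members that passed, 5 to 7 of 10, lay close to these background shares, and in IR cells at the background. limma and DESeq2 called no member in IR or K1030R cells, and the *Ier3* calls there were also lost without DKO replicate 2 or basal replicate 3 of the line.

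Between K1030R and IR cells in the basal state *Gadd45a* alone passed (-0.57 ± 0.07, adjusted p = 3.88e-08, edgeR), 1 of 10 members against 30.2% of all genes, and none was called (1.04%). *Ier2* (-0.33 ± 0.13, adjusted p = 0.0668) passed in DESeq2 (0.0143), with no filter on low counts and without IR basal replicate 3 (0.0125). ∆CT against IR cells gave 4 lower members, *Ier2* (-0.56 ± 0.14, adjusted p = 0.00389), *Gadd45a* (-0.45 ± 0.07, 2.39e-06), *Gadd45g* (-0.38 ± 0.11, 0.00783) and *Gadd45b* (-0.27 ± 0.08, 0.00715), against 26.1%, and none was called (0.708%). Of these, *Gadd45b* overlapped between the groups and did not pass without ∆CT basal replicate 2 or IR basal replicate 1 (adjusted p = 0.0845 and 0.0685), and *Gadd45g* not without ∆CT basal replicate 2 or IR basal replicate 2 (0.0756 and 0.075).

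JMO cells were compared with K1030R and with IR cells. Against K1030R cells 8 members were higher and 1 lower at no minimum fold, against 35.4% of all genes, and only *Ier3* was called (3.64%). *Arc* (0.62 ± 0.11, adjusted p = 2.43e-05, edgeR), *Ier5* (0.47 ± 0.07, 5.46e-07), *Gadd45b* (0.45 ± 0.07, 6.7e-06), *Gadd45g* (0.43 ± 0.11, 0.00139) and *Ppp1r15a* (0.39 ± 0.07, 1.86e-05) were among the higher ones, each without overlap between libraries. *Atf3* was the lower one (-0.52 ± 0.18, adjusted p = 0.0187), from 3.49, 3.22 and 2.43 to 1.62, 2.29 and 2.48 CPM, with overlap, and did not pass without JMO basal replicate 1 or K1030R basal replicate 1 or 2 (0.0677 to 0.171) or in DESeq2 (0.0577).

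Against IR cells 6 members were higher and 1 lower in JMO cells (42.4% of all genes passed), with *Ier3* the only call (4.59%). *Arc* (0.57 ± 0.11, adjusted p = 3.69e-05, edgeR), *Ier5* (0.47 ± 0.07, 2.47e-07) and *Gadd45b* (0.39 ± 0.07, 2.55e-05) were higher by the most after *Ier3*. *Gadd45a* was the lower one (-0.25 ± 0.06, adjusted p = 0.00202), although it was higher than in K1030R cells (0.32 ± 0.07, 0.000268). *Phlda1* (0.23 ± 0.09, adjusted p = 0.0316) did not pass without IR basal replicate 2 or 3 or JMO basal replicate 2 or 3 (0.0591 to 0.322). The *Ier3* calls against IR and K1030R cells were absent in limma and DESeq2, and that against IR cells was lost in 5 of 6 fits without 1 library, all but the one without IR basal replicate 1. That against K1030R cells was lost without JMO basal replicate 2 or K1030R basal replicate 3.

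Ranked over the 9 groups, the lowest and highest levels fell in different places. *Ier2*, *Gadd45g*, *Ppp1r15a*, *Atf3* and *Arc* were highest in IR cells with insulin, *Atf3* with overlap with ∆CT cells, and *Ier3* and *Phlda1* in ∆CT cells with insulin, where the libraries of both genes overlapped those of IR cells with insulin. *Ier5* was highest in JMO cells with insulin (46.6 ± 1.06 CPM), *Gadd45b* in JMO cells without it (36.0 ± 2.74 CPM), both without overlap with the next group, and *Gadd45a* in DKO cells (34.0 ± 2.15 CPM), overlapping IR cells. The lowest group was basal ∆CT for *Ier2*, *Ier3*, *Ier5*, *Gadd45g*, *Ppp1r15a* and *Phlda1*, and for each of the 6 it overlapped the next group.

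**Figure D4:**
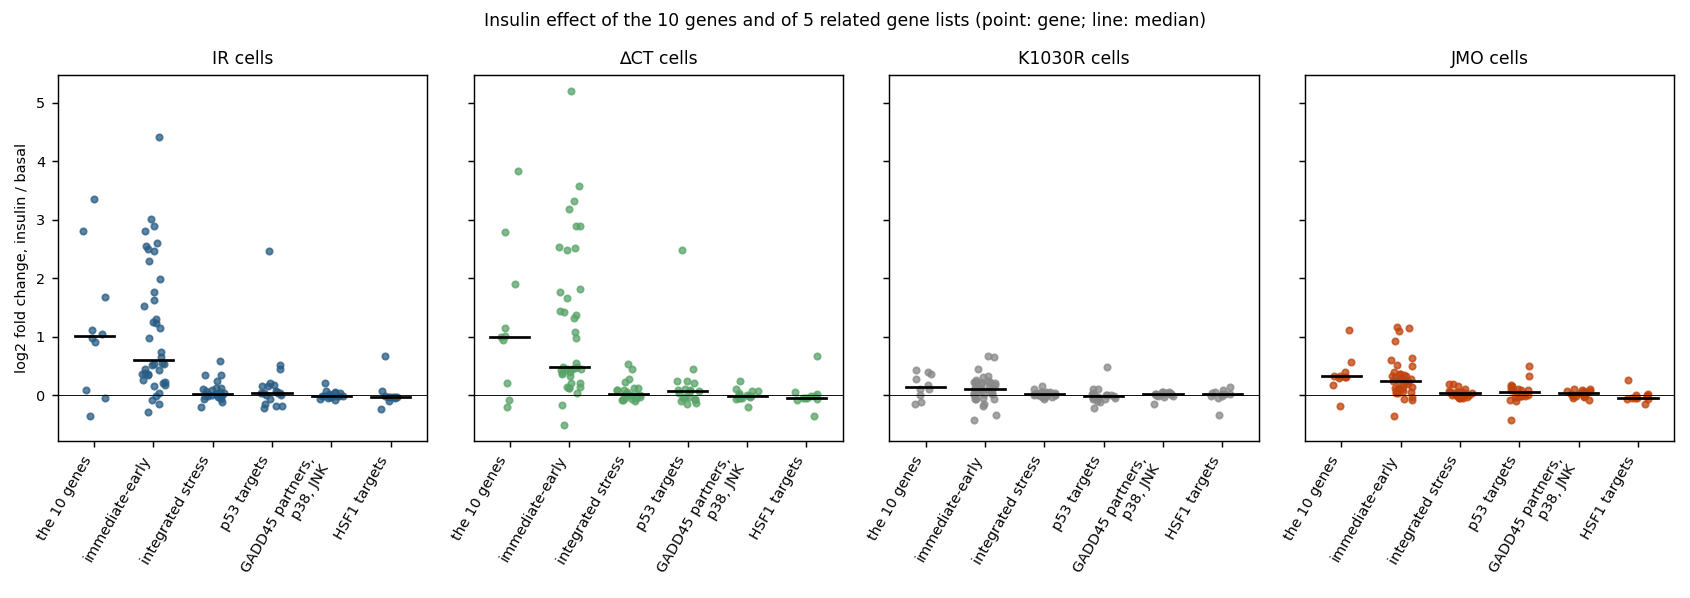
Insulin effect (vertical axis, log2 fold change of insulin over basal) of the 10 genes and of the tested genes of 5 related lists in each receptor line; points are genes and lines are medians. In IR and ∆CT cells the 10 genes spread upward to *Ier2* at 3.83 and the immediate-early list to *Fos* at 5.20. In the other 4 lists *Btg2*, at 2.47 and 2.48 and also on the immediate-early list, is the only gene called.

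The wider pathways of the genes were read from 5 lists. The lists were drawn up with earlier results of these data known, so their counts are a description and no test of enrichment. Of 40 tested growth factor immediate-early genes outside the members, 17 were called higher with insulin in IR cells and 17 in ∆CT cells. Over all genes 0.221% and 0.214% were called. *Fos* (4.41 and 5.20) was the largest in both, and the medians were 0.61 and 0.48. In K1030R cells none was called and 4 passed, against 0.156% of all genes. In JMO cells 4 were called, *Fos* (1.17), *Egr1* (1.15), *Dusp1* (1.096) and *Ccn1* (0.93), against 0.039%, and 13 passed, against 0.364%. In the basal state 13, 15, 11 and 4 genes of this list were called lower than DKO in IR, ∆CT, K1030R and JMO cells. Over all genes 6.89%, 6.29%, 5.29% and 2.11% were called in either direction. In IR, ∆CT and K1030R cells 1 gene of the list was called higher, and in JMO cells none. The medians were -0.46, -0.68, -0.49 and -0.34 beside 0.01 over all genes, and *Ccn2* (log2 -1.75 in IR cells) was among the lower ones in each line.

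The integrated stress response, to which *Atf3* and *Ppp1r15a* belong, was read next. Of its 23 other genes none was called with insulin in any line, and the median in IR cells was 0.02. In IR cells 4 passed, all higher, against 1.87% of all genes. They were *Ddit3* (CHOP, 0.58 ± 0.04), *Chac1* (0.35 ± 0.09), *Atf4* (0.25 ± 0.05) and *Ppp1r15b* (0.13 ± 0.03). In ∆CT cells 3 passed, all higher, against 1.01%, and in K1030R and JMO cells none did. In the basal state, where calls were far commoner over all genes (6.89%, 5.29% and 6.29%, against 0.221% with insulin in IR cells), 9, 7 and 7 genes were called higher than DKO in IR, K1030R and ∆CT cells and 1 lower in ∆CT cells (*Eif2ak2*, -1.09), led by *Trib3* (2.36, 2.25 and 2.12) and *Chac1* (1.77, 1.73 and 1.79). JMO cells had 1 call, *Slc7a11* (1.19). In the same 3 lines *Ppp1r15a* was lower and *Atf3* did not pass.

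Of 20 p53 target genes, *Btg2* alone, which is also on the immediate-early list, was called with insulin in IR (2.47) and ∆CT cells (2.48). In each line 4 passed, against 1.87% and 1.01% of all genes. The cells were immortalized with T-antigen, which binds p53, and the state of p53 was not measured in these libraries. In JMO cells 4 of its genes were called higher than DKO in the basal state, *Perp* (1.68 ± 0.37), *Eda2r* (1.07 ± 0.07), *Fas* (0.86 ± 0.07) and *Cdkn1a* (p21, 0.81 ± 0.05), against 2.11% of all genes, and 13 passed higher and 2 lower, against 34.3%. In IR cells 2 of the 20 were called higher and 2 lower, against 6.89% of all genes. In K1030R and ∆CT cells it was 1 each way, against 5.29% and 6.29%. *Gadd45a*, itself known as a p53 target, was lower than DKO in JMO, K1030R and ∆CT cells and did not pass in IR cells. Among 17 GADD45 partners and p38 and JNK kinases none was called with insulin in any line, and *Cdkn1a* alone passed in IR cells (0.22 ± 0.05). The MAP kinase kinase *Map2k6* was called higher than DKO in IR (1.49 ± 0.08), K1030R (1.25 ± 0.08) and ∆CT cells (1.45 ± 0.08), and *Map3k5* lower in IR (-1.03 ± 0.19) and ∆CT cells (-1.18 ± 0.20). These were the only basal calls of the 17 genes in these lines, against 6.89%, 5.29% and 6.29% of all genes in IR, K1030R and ∆CT cells. In JMO cells *Cdkn1a* was the only call (2.11%).

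None of 11 heat shock genes regulated by HSF1 was called in any comparison. *Dnajb1* passed with insulin in IR (0.67 ± 0.05) and ∆CT cells (0.67 ± 0.05), and *Hspa1b* passed lower in IR cells (-0.23 ± 0.06). In JMO cells, where *Ier5* passed with insulin, none of the 11 passed.

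The genes whose pattern was most like that of each member were named by Pearson's correlation over the 9 group means of log2 CPM, which share libraries and scaling. *Ier2* and *Arc* were most like *Btg2* (0.989 and 0.992) and *Zfp36* (0.989 and 0.989), *Gadd45g* most like *Fos* (0.954), *Ier3* most like *Dusp5* (0.973), *Phlda1* like *Mcl1* (0.979) and *Atf3* like *Hes1* (0.983). *Ppp1r15a* was most like the unnamed transcripts *5430416N02Rik* (0.973) and *6720427I07Rik* (0.973). *Ier5* was most like *Gm47486* (0.993) and *Id4* (0.984), *Gadd45a* like *Slc8b1* (0.984) and *Gadd45b* like *Tapbpl* (0.983), none of them an immediate-early gene of the list. Over the 26 single libraries these last 4 values were lower, at 0.652, 0.685, 0.803 and 0.788, whereas *Ier2* and *Arc* with *Btg2* stayed at 0.984 and 0.983. Between members the highest values were 0.982 for *Ier2* with *Arc* and 0.979 for *Gadd45g* with *Ppp1r15a*, while *Gadd45b* ran against *Atf3* (-0.823) and *Ier5* stood apart from *Ier2* (0.02).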

How the data were processed

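Polyadenylated RNA was sequenced as 100-base single-end reverse-stranded reads. The authors trimmed the reads with fastp, assigned them with kallisto to the Ensembl mouse transcriptome and summed transcripts to genes with tximport, and deposited the expected counts per gene and library, which are not scaled to library size. Whether kallisto used the strand is not given in the sources used here.

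Expected counts were rounded and tested with edgeR 4.0.16 (R 4.3.3) by a quasi-likelihood fit with robust dispersion to the 26 libraries, 1 mean per group, TMM scaling and genes above 0.5 CPM in at least 4 libraries (15402). Called genes passed the test beyond 1.5-fold, passed genes the test with no minimum fold, each at a Benjamini-Hochberg adjusted p below 0.05 over all genes tested. Errors of log2 fold changes are SE, of CPM SD. Separation of libraries without overlap is a description, since its share over all genes was not counted. The fit was tested on simulated data. The 10 genes and the lists were chosen with earlier results of these data known. All 10 are named in each comparison, with at most 4 called genes per list by size of change and the 3 most correlated genes per member. Genes named where 5 or fewer of a list passed were chosen after their values were seen. Alternatives were DESeq2 1.42.0, limma 3.58.1, RLE scaling, other count filters, only the groups compared, a replicate block and leaving out each library. Promoter sequence came from RefSeq and gene positions from GENCODE M21, both on GRCm38.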

Additional observations from a re-analysis of the deposited data

Results flagged for a closer look

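The insulin effect in K1030R and in JMO cells was set against that in IR cells, whose response served to choose the genes, so the differences below describe that choice in part and are no independent test. The contrast passed for 7 of the 10 genes between K1030R and IR cells and for 6 between JMO and IR cells. The difference of the log2 fold changes, K1030R minus IR, was -2.95 for *Arc*, -2.93 for *Ier2*, -1.28 for *Ier3*, -1.004 for *Atf3*, -0.74 for *Phlda1*, -0.70 for *Gadd45g* and -0.68 for *Ppp1r15a*. *Atf3* passed in 9 of 19 alternatives and *Gadd45g* in 17. JMO minus IR, the difference was -2.47 for *Arc*, -2.24 for *Ier2*, -1.10 for *Ier3*, -0.65 for *Ppp1r15a*, -0.64 for *Gadd45g* and -0.61 for *Phlda1*. There *Gadd45g* passed in 13 of 19 alternatives and *Phlda1* in 18. The other 5 genes in the first contrast and 4 in the second passed in each of the 19.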

How the results depend on the processing

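With no minimum fold in place of 1.5-fold, the members called against DKO numbered 5 for IR, 7 for ∆CT, 6 for K1030R and 5 for JMO cells. They numbered 1 for K1030R and 4 for ∆CT against IR, 7 for JMO against IR and 9 for JMO against K1030R. With insulin there were 2 in K1030R and 4 in JMO cells, and 7 and 6 for the differences K1030R minus IR and JMO minus IR. DESeq2 and limma gave 0 in place of 1 for IR against DKO, K1030R against DKO, JMO against IR and JMO against K1030R, limma also for insulin in JMO cells, and a fit of only the groups compared gave 0 for JMO against IR and for insulin in JMO cells. Leaving out 1 library at a time, the count ran from 0 to 1 in those 5 comparisons and from 4 to 6 for insulin in IR and in ∆CT cells, and stayed at its value in the other 9. Leaving out a ∆CT insulin library leaves 1, which is then assumed to vary like the other groups. The cause of these changes was not tested.

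The replicate numbers did not pair the samples (median correlation of deviations -0.001 for 100 pairs with the same number and -0.002 for 200 with different numbers). With the replicate block, 5 in place of 6 members were called with insulin in ∆CT cells, without *Gadd45g*, and the counts of the other comparisons were unchanged. *Ier2* in JMO against DKO cells (0.34, adjusted p = 0.0526) no longer passed with the block, and *Ier3* in ∆CT against IR cells (-0.18, adjusted p = 0.0475) did, both in edgeR.

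Of the values of single genes counted under alternatives, 1883 kept their direction and their side of the threshold, 63 lost the pass, 24 gained it and 34 changed sign, all of the last near 0. Of the ∆CT minus IR differences only *Ier2* and *Ppp1r15a* were counted, and of JMO minus K1030R only *Ier2* and *Gadd45b*. Values left out changed sign too, such as *Atf3* in ∆CT minus IR (-0.29 to 0.30). *Ier2* in JMO against IR cells was 0.0022 with at least 10 counts in 4 libraries, 0.011 with DESeq2, 0.0026 with limma, 0.0034 with RLE scaling and 0.0 with only the groups compared, and ran from -0.12 to 0.16 without 1 library. *Arc* in IR against DKO cells was 0.001 with no filter and 0.009 with the replicate block, and ran from -0.0765 to 0.15 without 1 library. Without 1 library, the range against DKO was -0.16 to 0.0221 for *Gadd45g* in IR, -0.12 to 0.11 for *Arc* and -0.0573 to 0.0938 for *Ier2* in K1030R, and -0.0394 to 0.0314 for *Ier3* and -0.0186 to 0.0711 for *Ier5* in JMO cells. For K1030R against IR it was -0.0924 to 0.0023 for *Arc*, -0.12 to 0.0073 for *Gadd45b*, -0.10 to 0.0383 for *Ier3*, -0.0316 to 0.0375 for *Ier5* and -0.18 to 0.10 for *Phlda1*, and for ∆CT against IR -0.19 to 0.0825 for *Phlda1*. With insulin it was -0.20 to 0.0336 for *Gadd45a* in ∆CT, and -0.0268 to 0.22 for *Atf3* and -0.071 to 0.11 for *Ier5* in K1030R cells. For the differences it was -0.17 to 0.0126 for *Ier5* (K1030R minus IR) and -0.10 to 0.0048 for *Gadd45b* (JMO minus K1030R). Counts of 38 to 155 per library limit *Atf3* the most.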
